A study of Mus musculus with 4 samples.

Results

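The nuclear genes of oxidative phosphorylation were taken as every gene of the expression tables whose symbol begins with Nduf and a letter a, b, c, s or v, with Uqcr, with Cox and a digit from 4 to 8, or with Atp5, together with Sdha to Sdhd. This rule found 90 of 22492 gene symbols, each with 1 row. Of these, 83 encode subunits or subunit isoforms, with 36 in complex I, 4 in complex II, 8 in complex III, 20 in complex IV and 15 in complex V. The other 7 are no subunits: Ndufaf1 to Ndufaf4 are assembly factors of complex I, and Cox4nb, Atp5s and Atp5sl carry names of the series. All of them are nuclear genes, and no symbol starting with mt-, the mark of genes of the mitochondrial genome, was found.

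The cells were E14Tg2a, a male mouse embryonic stem cell line, either unmodified (WT) or with Tet1, Tet2 and Tet3 all knocked out (TetTKO). Tet enzymes oxidise 5-methylcytosine, a step on the way to its removal. Per the labels' protocols, TetTKO cells came from transfection with CRISPR vectors carrying guides against all of the Tet genes, followed by picking of clones, and the labels do not say how many clones a library represents. They state that 5-hydroxymethylcytosine was not detectable in the knockout by mass spectrometry. Both lines had been kept in a medium with inhibitors of MEK and GSK3 and were then moved to serum medium (15% serum and 1000 units/ml LIF) for 17 days or more. Each genotype had 1 library of whole-genome bisulfite sequencing (WGBS) and 1 of RNA-seq, so no difference below has a replicate check, and WT and TetTKO stand for those libraries.

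Oxidative phosphorylation is carried out in the inner mitochondrial membrane. Complexes I and II pass electrons from NADH and succinate to ubiquinone, complex III hands them to cytochrome c, and complex IV gives them to oxygen, while complexes I, III and IV pump protons that drive ATP synthesis by complex V. The nuclear genes of these complexes are active in nearly every cell type, and NRF1, ETS factors, YY1 and oestrogen-related receptors are known as regulators of many of them. For some subunits of complex IV a second gene encodes an isoform restricted to muscle, lung, testis or other tissues.

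The set of RefSeq (GRCm38.p6) promoters used here gave a transcription start for 68 of the 83 subunit symbols. The 250 bases before the start held a median of 14 CpGs over these genes, against 6 over all 27025 symbols of the table, with a range of 1 to 35. Of the windows shown, that of Atp5b belongs to the most abundant subunit mRNA and that of Ndufa4 to the most abundant one from chromosome 6. The other windows belong to tissue isoforms whose ends ran from unmethylated to methylated. Their positions are chr10:128083057-128083306 (plus strand) for Atp5b, chr6:11907451-11907700 (minus strand) for Ndufa4, chr7:4753095-4753344 (minus strand) for Cox6b2, chr7:30183921-30184170 (plus strand) for Cox7a1, chr5:71548206-71548455 (minus strand) for Cox7b2 and chr7:140900447-140900696 (minus strand) for Cox8b. Capitals mark CpGs, and each sequence runs 5′ to 3′ on the strand of its gene.
Atp5b: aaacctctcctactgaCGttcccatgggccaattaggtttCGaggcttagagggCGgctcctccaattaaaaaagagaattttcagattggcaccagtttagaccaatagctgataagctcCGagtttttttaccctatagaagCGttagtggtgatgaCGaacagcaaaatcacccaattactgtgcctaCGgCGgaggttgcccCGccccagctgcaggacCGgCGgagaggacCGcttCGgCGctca
Ndufa4: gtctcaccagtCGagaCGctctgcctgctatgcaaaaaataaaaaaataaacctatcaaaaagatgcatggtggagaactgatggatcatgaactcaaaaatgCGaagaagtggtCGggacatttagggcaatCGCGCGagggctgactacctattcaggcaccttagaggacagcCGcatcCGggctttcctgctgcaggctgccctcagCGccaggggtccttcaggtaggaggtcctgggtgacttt
Cox6b2: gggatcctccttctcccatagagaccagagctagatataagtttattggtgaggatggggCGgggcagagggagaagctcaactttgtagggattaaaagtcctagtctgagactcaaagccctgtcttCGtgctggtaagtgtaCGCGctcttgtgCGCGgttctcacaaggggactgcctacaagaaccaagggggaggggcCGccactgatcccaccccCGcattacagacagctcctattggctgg
Cox7a1: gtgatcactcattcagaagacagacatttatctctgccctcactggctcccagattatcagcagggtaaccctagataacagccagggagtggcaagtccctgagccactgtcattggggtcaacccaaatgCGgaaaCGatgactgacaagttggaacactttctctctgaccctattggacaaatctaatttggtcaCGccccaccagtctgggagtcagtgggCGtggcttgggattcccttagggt
Cox7b2: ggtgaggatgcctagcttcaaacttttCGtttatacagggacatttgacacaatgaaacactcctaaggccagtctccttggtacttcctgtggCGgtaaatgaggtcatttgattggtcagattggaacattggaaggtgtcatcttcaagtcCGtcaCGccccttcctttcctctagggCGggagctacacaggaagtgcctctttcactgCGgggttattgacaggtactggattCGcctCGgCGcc
Cox8b: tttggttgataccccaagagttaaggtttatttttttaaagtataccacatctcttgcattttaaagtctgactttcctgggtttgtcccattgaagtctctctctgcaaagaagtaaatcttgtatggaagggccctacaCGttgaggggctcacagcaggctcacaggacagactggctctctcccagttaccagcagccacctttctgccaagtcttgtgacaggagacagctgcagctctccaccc
The window of Atp5b held 14 CpGs, that of Ndufa4 10, Cox7b2 9, Cox6b2 8, Cox7a1 4 and Cox8b 1. The methylation data are on the mm9 build, so no read value was tied to a CpG of these windows, and methylation is given below for the ends of the mm9 gene intervals.

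Short motifs of the known regulators were searched as exact letters on both strands of the 250 bases. The NRF1 motif GCGCATGCG was in 6 of 68 subunit windows (8.82%) and in 1.49% of the windows of all symbols. The ETS motif CCGGAAG was in 11 (16.2%) against 7.05%, the YY1 motif ATGGCGG in 3 (4.41%) against 2.19%, and the oestrogen-related receptor motif AAGGTCA in 5 (7.35%) against 4.05%. A match is a description of these letters. Any of the motifs was present in 22 windows and more than 1 kind in 2 windows (Atp5l and Cox6a1), and in none of the 68 did matches of different motifs overlap. With the 50 bases after the start included, the NRF1 motif was in 8 windows (11.8%) against 1.81% of all, ETS in 15 (22.1%) against 9.12%, YY1 in 9 (13.2%) against 4.19% and the receptor motif in 8 (11.8%) against 4.66%. The NRF1, ETS and YY1 motifs hold CpGs, and the subunit windows held more CpGs than those of all symbols. The NRF1 matches are shown with up to 10 bases on each side, in capitals, since NRF1 is the regulator best known for this gene group. They lie at chr15:102671071-102671099 (minus strand) for Atp5g2, chr5:108434431-108434459 (minus strand) for Atp5k, chr9:44920965-44920992 (minus strand) for Atp5l, chr5:115349102-115349130 (minus strand) for Cox6a1, chr17:56717692-56717720 (plus strand) for Ndufa11 and chr2:36049339-36049357 (minus strand) for Ndufa8.
Atp5g2: ggctccggccGCGCATGCGcagagccttc
Atp5k: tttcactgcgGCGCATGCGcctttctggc
Atp5l: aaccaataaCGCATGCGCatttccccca
Cox6a1: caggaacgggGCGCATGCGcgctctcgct
Ndufa11: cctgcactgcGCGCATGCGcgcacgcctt
Ndufa8: tcgctggagaCGCATGCGC
At the CpG-denser ends of these 6 genes, methylation in WT was 0.455% for Atp5g2, 4.64% for Atp5k, 0.944% for Atp5l, 0.601% for Cox6a1, 0.226% for Ndufa11 and 16.1% for Ndufa8. In TetTKO the values were 0.455%, 6.81%, 0.242%, 1.12%, 0.817% and 16.4% in the same order.

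The WGBS libraries held 132794183 (WT) and 150132176 (TetTKO) CpG read calls over 14323377 CpGs, with median coverages of 8 and 10. On chromosome 6 the median coverage was 12 in WT, against 8 or 9 on the other autosomes, and 10 in TetTKO on chromosome 6 and on the others. The read depth of the RNA libraries is unknown. Tet1 was at 15.1 and 4.36 FPKM and Tet2 at 14.9 and 4.13 FPKM in WT and TetTKO, while Tet3 was at 0.32 and 0.27 FPKM. Of the 7 stem cell markers examined, Pou5f1 (1178 and 1092 FPKM), Sox2 (191.6 and 187.2 FPKM) and Dppa5a (3211 and 3344 FPKM) were abundant in both. Esrrb (49.3 and 26.4 FPKM), Zfp42 (698.3 and 513.4 FPKM) and Nanog, on chromosome 6 (116.3 and 71.0 FPKM), were lower in TetTKO, and 5 of the 6 markers off chromosome 6 were lower. Among fibroblast markers, which feeder cells would carry, the summed level of the 6 genes was 1.56 and 2.33 FPKM, with Lum listed at 0 in both and Thy1 at 1.29 and 0.96 FPKM. All 4 primitive endoderm markers examined were higher in TetTKO, with a summed level of 1.84 FPKM in WT and 5.82 FPKM in TetTKO (Dab2 0.72 and 2.13, Gata6 0.37 and 1.44, Sox17 0.30 and 1.06). The part of these marker differences in those of the subunits was not tested.

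Subunit mRNAs were among the more abundant transcripts of these cells. FPKM, which scales reads by transcript length and library size, can be compared between genes. Over the 79 subunits with at least 1 FPKM in either library the median was 165.0 FPKM in WT and 147.4 FPKM in TetTKO, against 9.01 and 8.99 FPKM over 10984 genes counted by the same minimum. Together the subunits held 2.15% of the summed FPKM in WT and 2.09% in TetTKO. None of the 79 reached 1 FPKM in only 1 library, and the 4 others (Ndufs5, Cox6a2, Cox8b and Cox8c) stayed under it in both. Levels in both libraries were closely correlated, with a Pearson r of 0.992 for log2(FPKM + 1) over the 79 genes. These genes share the libraries and are not independent, and r also reflects their wide range (1.36 to 1448 FPKM in WT).

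The ubiquitous subunits of complex I, the NADH dehydrogenase, were among the lower ones in level, with a WT median of 129.3 FPKM over 35 genes. The 7 core subunits, which carry the flavin and iron-sulphur clusters in the arm that faces the matrix, ranged from 41.6 FPKM (Ndufs8) to 157.4 FPKM (Ndufv1) in WT. Ndufs8 was at 51.8 FPKM in TetTKO and Ndufv1 at 135.6 FPKM. Of the supernumerary subunits, which surround the core, Ndufa7 had the highest WT level, at 400.4 FPKM, and 328.7 FPKM in TetTKO. Ndufa11, in the membrane arm, had the lowest, at 32.2 and 29.2 FPKM. Ndufs5 was listed at 0 in both libraries. Its interval (mm9 chromosome 4, 123389952 to 123395429) is nearly that of a row with another symbol, BC002163 (123389952 to 123395404), which was at 22.6 FPKM in WT and 21.1 FPKM in TetTKO.

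Succinate dehydrogenase (complex II) had the lowest median level and the cytochrome bc1 complex (complex III) one between complexes I and V. Complex II had a WT median of 117.5 FPKM over its 4 genes. Sdha, the flavoprotein, was at 67.9 and 69.2 FPKM and Sdhd, a membrane anchor, at 145.8 and 138.7 FPKM in WT and TetTKO. Complex III had a WT median of 269.5 FPKM over 8 genes. Its highest member in WT was Uqcr11, a small accessory subunit, at 554.9 FPKM, and its lowest was Uqcrq, another small subunit, at 70.9 FPKM. Uqcrfs1, the Rieske iron-sulphur protein that passes on electrons, was at 93.8 and 88.4 FPKM.

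Cytochrome c oxidase and ATP synthase mRNAs were the most abundant. In complex IV, 12 ubiquitous subunits had a WT median of 415.3 FPKM, from Cox6a1 at 179.3 FPKM to Cox4i1 at 916.6 FPKM. Cox4i1 was at 881.0 FPKM in TetTKO, and Cox7c, the next, at 781.5 and 736.1 FPKM. In complex V, 15 genes had a WT median of 344.9 FPKM. Atp5b, the catalytic beta subunit (mm9 chromosome 10, 127520362 to 127527444), was at 1448 FPKM in WT and 1394 FPKM in TetTKO, and Atp5d, the delta subunit of the central stalk, at 44.0 and 41.0 FPKM. These extremes span 32.9-fold within 1 complex in WT. Atp5g1, Atp5g2 and Atp5g3 encode the same mature c-ring protein. They were at 274.7, 385.4 and 293.7 FPKM in WT and at 321.6, 387.3 and 344.0 FPKM in TetTKO, and summed to 953.9 and 1053 FPKM. Many genes of this group have near-identical processed copies elsewhere in the genome, and how reads were shared among such copies is not given in the sources used here, so levels of single members are uncertain to that extent.

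**Figure D1:**
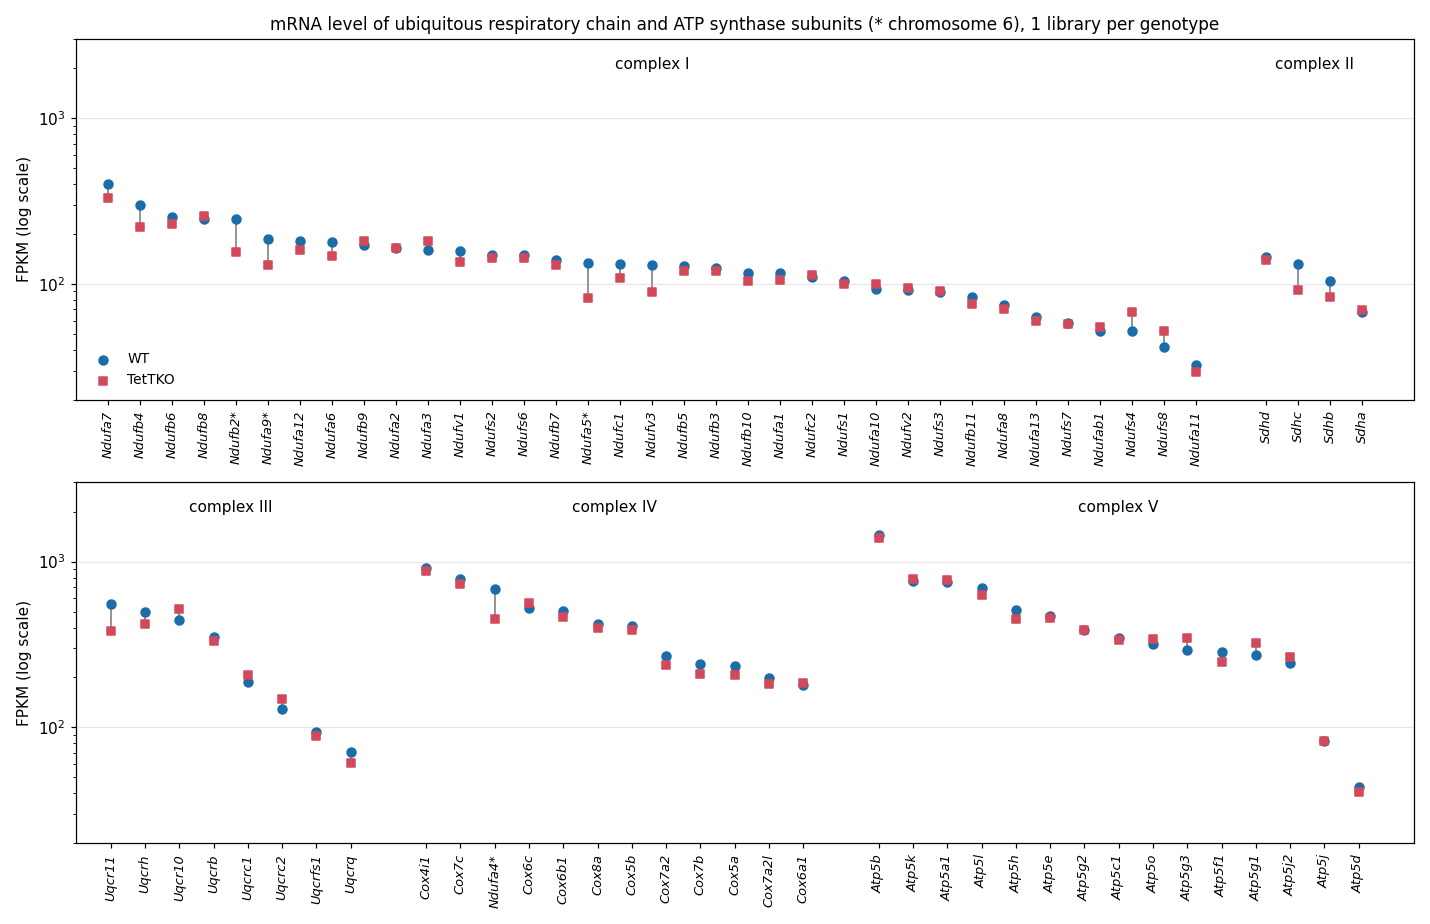
FPKM (log axis) of each ubiquitous subunit listed above 0 in the WT (blue circles) and TetTKO (red squares) libraries, by complex and in order of WT level, with asterisks for genes on chromosome 6. Levels run from Ndufa11 (32.2 FPKM in WT) to Atp5b (1448 FPKM in WT), and the symbols of most genes lie close together.

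Between the genotypes the subunits off chromosome 6 differed little. Over 75 genes the median of log2((TetTKO + 1)/(WT + 1)), the measure of difference used throughout, was -0.07, with 48 genes lower and 27 higher in TetTKO. Over 10470 genes off chromosome 6 it was 0.0036. In TetTKO 64% of the subunits were lower, against 49.4% of these genes. A difference of at least 0.32 on this scale, the threshold used below, was seen for 4 subunits lower in TetTKO (5.33% of 75), against 13.4% of all genes off chromosome 6, and for 3 higher (4%), against 16.2% of all genes. Since genes of low FPKM vary more, genes of at least 50 FPKM in both libraries were also taken alone. Of 67 such subunits 4 were lower and 1 higher past the threshold, with a median of -0.07. Of 1422 such genes off chromosome 6, 8.93% were lower and 5.41% higher past it, with a median of -0.03. Differences of any size were to the lower side in 67.2% of these subunits and 57.7% of these genes. No subunit on any chromosome differed by 2-fold, against 1.77% of 10984 genes higher and 0.847% lower. In bulk RNA, fewer cells of a type and less RNA per cell cannot be told apart.

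The 4 subunits lower in TetTKO off chromosome 6 belong to complexes I, II and III. Uqcr11 was at 554.9 FPKM in WT and 380.5 FPKM in TetTKO, 1.46-fold lower. Ndufv3, an accessory subunit beside the NADH site of complex I, was at 129.3 and 89.5 FPKM, 1.44-fold lower. Sdhc, a membrane anchor of complex II, was at 130.9 and 91.5 FPKM, 1.43-fold lower. Its partner Sdhd was at 145.8 and 138.7 FPKM, so the anchors that pair in the complex differed from each other in TetTKO more than in WT. Ndufb4, in the membrane arm of complex I, was at 298.7 and 218.9 FPKM, 1.36-fold lower. Sdhb, the iron-sulphur subunit of complex II, fell just short of the threshold, at 104.1 and 83.6 FPKM, 1.24-fold lower.

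Of the 3 higher subunits, Ndufs4, an accessory subunit that joins the NADH-oxidising module of complex I, is ubiquitous. It was at 52.0 FPKM in WT and 67.5 FPKM in TetTKO, 1.30-fold higher. The others, Ndufa4l2 and Cox4i2, are tissue isoforms under 4 FPKM and are described with their paralogs. Ndufs8 lay just under the threshold, at 41.6 and 51.8 FPKM.

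By complex, the ubiquitous subunits off chromosome 6 had medians on the log2 scale of -0.07 in complex I (32 genes), -0.19 in complex II (4), -0.09 in complex III (8), -0.09 in complex IV (11) and -0.02 in complex V (15). In complex I, 22 (68.8%) were lower and 10 higher in TetTKO, beside 57.7% lower of genes of at least 50 FPKM off chromosome 6. The core subunits had a median of -0.02 (7 genes, none past the threshold). The supernumerary ones had a median of -0.09 (25 genes, 2 lower and 1 higher past it). In complex III, Uqcr10 was higher in TetTKO (442.2 and 516.4 FPKM, 0.22 on the log2 scale) as was Uqcrc2, a core protein (129.3 and 147.4 FPKM, 0.19), while Uqcrh, the hinge protein that binds cytochrome c1, was lower (499.8 and 420.3 FPKM, -0.25). In complex IV, 9 of 11 genes (81.8%) were lower, but none past the threshold. The largest differences were Cox7b, on the X chromosome (241.0 and 209.0 FPKM, -0.20), and Cox7a2 (268.3 and 236.5 FPKM, -0.18), and the highest was Cox6c (525.5 and 560.8 FPKM, 0.09). In complex V, 8 genes were lower and 7 higher, from Atp5f1 and Atp5h, in the peripheral stalk (283.2 and 247.4 FPKM, -0.19; 508.1 and 452.5 FPKM, -0.17), to the c-ring genes Atp5g1 and Atp5g3 (each 0.23).

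The 4 subunits on chromosome 6 were all lower in TetTKO. Ndufa4, Ndufa5 and Ndufb2 differed by more than any subunit off it, and Ndufa9 by less than Uqcr11, Ndufv3 and Sdhc. Ndufa4, which was named as a subunit of complex I and is now placed in complex IV (mm9 chromosome 6, 11850372 to 11857446), was at 685.9 FPKM in WT and 451.1 FPKM in TetTKO, 1.52-fold lower. Ndufa5, Ndufa9 and Ndufb2 are supernumerary subunits of complex I. Ndufa5 was at 133.1 and 82.2 FPKM, 1.62-fold lower. Ndufb2 was at 246.0 and 155.5 FPKM, 1.58-fold lower. Ndufa9 was at 185.1 and 130.7 FPKM, 1.42-fold lower.

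Their differences lay with those of the chromosome. The median over the 4 was -0.63 on the log2 scale, all 4 were lower past the threshold and none higher, against 62.1% lower and 8.17% higher of the 514 genes counted on chromosome 6, whose median was -0.43. Over 91 genes of chromosome 6 with at least 50 FPKM in both libraries the median was -0.54, with quartiles of -0.71 and -0.44, and each of the 4 subunits lay between these quartiles. WGBS coverage of chromosome 6 was 12 in WT and 10 in TetTKO, as given above, and its part in the RNA difference was not tested. In both libraries Ndufa4 lay within the range of the other ubiquitous subunits of complex IV.

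**Figure D2:**
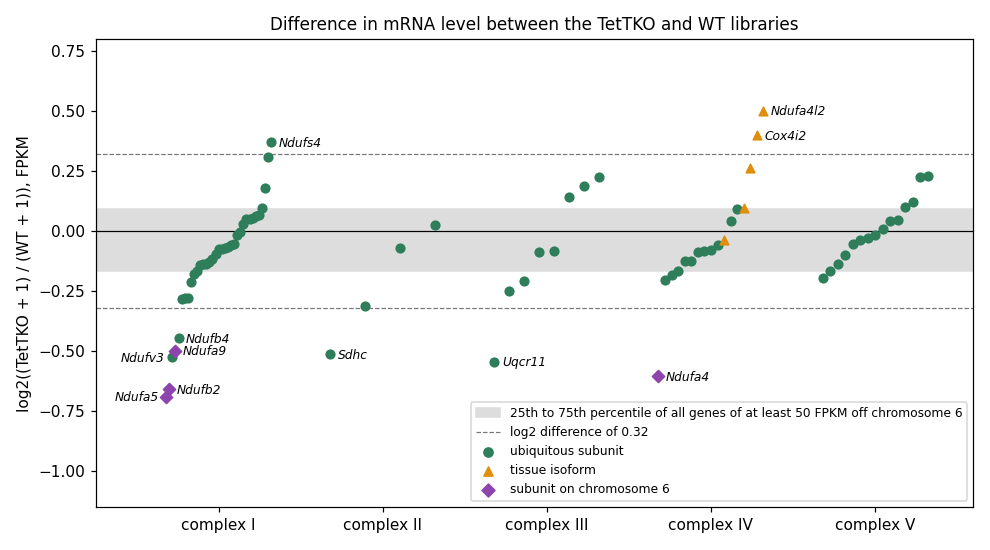
Each point is 1 of the 79 counted subunits, placed by complex and by its log2 difference between TetTKO and WT (vertical axis, FPKM with 1 added), with the quartile range of all genes of at least 50 FPKM off chromosome 6 in grey and dashed lines at 0.32 and -0.32. The 4 genes on chromosome 6 (purple diamonds) lie between -0.50 and -0.69, and most others lie within the dashed lines.

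Tissue isoforms were low beside their ubiquitous partners in both genotypes. Cox4i2, the lung isoform of Cox4, was at 1.36 FPKM in WT and 2.11 FPKM in TetTKO, and its partner Cox4i1 was 674-fold higher in WT. Ndufa4l2, a paralog of Ndufa4, was at 2.13 and 3.43 FPKM, with Ndufa4 322-fold higher in WT and 131.5-fold in TetTKO. Cox7b2 was at 1.37 and 1.84 FPKM, with Cox7b 176-fold higher in WT. Cox6b2, a testis isoform, was at 6.73 and 7.27 FPKM, with Cox6b1 at 503.0 and 460.8 FPKM. Cox7a1, an isoform of heart and skeletal muscle, stood apart with 32.4 FPKM in WT and 31.6 FPKM in TetTKO, against 268.3 and 236.5 FPKM for Cox7a2. The remaining isoforms, known from muscle (Cox6a2, Cox8b) or testis (Cox8c), were at or near 0: Cox8b was listed at 0 in both libraries, Cox8c was at 0.09 and 0.04 FPKM, and Cox6a2 was at 0.13 FPKM in WT and listed at 0 in TetTKO. Their partners Cox8a (422.3 and 400.3 FPKM) and Cox6a1 (179.3 and 184.4 FPKM) were abundant. Differences at such levels rest on few reads: with 5 FPKM added in place of 1, neither Cox4i2 nor Ndufa4l2 was past the threshold. The interval of Ndufa4l2 touches that of Shmt2, a folate enzyme gene at 51.5 and 51.6 FPKM, and 10 members in all overlap another symbol. Whether reads were counted by strand is not given in the sources used here, so reads of overlapping genes may not have been told apart.

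Genes that assemble or feed the chain showed no common direction off chromosome 6. Of 26 assembly factors outside the naming rule 24 were found, with a median of -0.07 on the log2 scale, 4 lower (16.7%) and 1 higher (4.17%) past the threshold, beside the 13.4% and 16.2% of all genes off chromosome 6 given above. Foxred1 and Nubpl, needed for complex I, were lower (33.8 and 21.6 FPKM; 15.4 and 10.6 FPKM), as was Sdhaf1, needed for complex II (17.7 and 12.5 FPKM). Surf1, needed for complex IV, was higher (14.9 and 22.5 FPKM), and Acad9 (22.9 and 28.5 FPKM) and Cox11 (7.21 and 8.86 FPKM) were next. Of the 7 members that are no subunits, 1 was past the threshold, Cox4nb (13.9 and 17.6 FPKM). The electron carrier cytochrome c, Cycs, lies on chromosome 6 and was at 109.6 and 66.8 FPKM, whereas cytochrome c1, Cyc1, was at 124.9 and 125.7 FPKM. The testis cytochrome c gene, Cyct, was at 11.2 and 8.05 FPKM, lower past the threshold. The ATP synthase partners Atpif1, an inhibitor of the enzyme, and Usmg5 were at 346.7 and 355.6 FPKM and at 541.1 and 683.7 FPKM. Usmg5 was higher past the threshold (0.34 on the log2 scale). So of these 4 genes off chromosome 6, 1 was past it in each direction.

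Pyruvate dehydrogenase and citric acid cycle genes had a median of -0.0048 over 14 genes, with 2 lower past the threshold (Pdhb, 177.5 and 118.3 FPKM, and Cs, 61.7 and 48.3 FPKM) and 1 higher (Dlat, 27.7 and 35.5 FPKM), 14.3% and 7.14% of the list. The next were Idh3a (53.0 and 43.6 FPKM), Mdh2 (66.1 and 76.2 FPKM) and Idh3b (67.0 and 76.7 FPKM). Suclg1 and Suclg2 of the cycle lie on chromosome 6 and were lower (56.3 and 35.0 FPKM; 106.8 and 78.3 FPKM). Mitochondrial ribosomal proteins had a WT median of 55.2 FPKM and a median of -0.01 on the log2 scale over 69 genes. Past the threshold were 13.4% (lower) and 16.2% (higher) of all genes off chromosome 6. Of those of at least 50 FPKM in both libraries, 8.93% and 5.41% were. In the list 6 were lower (8.70%) and 3 higher (4.35%). The largest differences were Mrps6 (15.4 and 9.87 FPKM), Mrps12 (59.97 and 43.7 FPKM) and Mrpl52 (163.9 and 123.1 FPKM) among the lower, and Mrps15 (13.6 and 20.4 FPKM), Mrps10 (35.5 and 49.0 FPKM) and Mrpl38 (26.6 and 36.3 FPKM) among the higher. On chromosome 6 lie 7 more, led by Mrps33 (75.5 and 51.9 FPKM) and Mrps35 (76.4 and 53.1 FPKM). Regulators of mitochondrial biogenesis had a median of 0.02 over 14 genes, with 1 past the threshold in each direction (7.14% each): the oestrogen-related receptor gene Esrrb, lower as given above, and the mitochondrial DNA polymerase gene Polg, higher (28.3 and 37.7 FPKM). The next were Esrra (10.6 and 8.51 FPKM), Polrmt (10.9 and 8.93 FPKM), Pprc1 (4.18 and 5.11 FPKM) and Yy1 (33.9 and 39.2 FPKM). Nrf1, the regulator whose motif is shown above, lies on chromosome 6 and was at 36.1 and 34.9 FPKM. Glycolysis genes had a median of 0.08 over 11 genes. Pfkp was lower by over 2-fold (112.2 and 46.99 FPKM) and was the sole gene lower past the threshold (9.09% of the list). Pfkm (8.37 and 17.2 FPKM), Pfkl (97.4 and 170.2 FPKM) and the lactate dehydrogenase gene Ldha (451.2 and 575.3 FPKM) were higher past the threshold (27.3% of the list, against 16.2% of all genes off chromosome 6). Hk1 (3.47 and 2.81 FPKM) and Eno1 (102.4 and 92.7 FPKM) were the next lower. The glycolysis genes of chromosome 6 were all lower: Hk2 was at 102.2 and 55.1 FPKM, Tpi1 at 612.7 and 440.6 FPKM and Gapdh at 497.9 and 399.5 FPKM.

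Methylation was read over each gene interval and at both of its ends, each from 1000 bp outside to 500 bp inside, as the mean over listed CpGs, and the end with more listed CpGs is called the denser end. The files give no strand. Where the RefSeq promoter set gives one, the denser end was on the side of the start for 64 of 64 ubiquitous subunits. The same held for 3 of 4 tissue isoforms, the exception being Cox8b. Bisulfite reads 5-methylcytosine and 5-hydroxymethylcytosine alike. Intervals below are exact (Clopper-Pearson) 95% bounds on summed read calls and cover counting error only.

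The denser ends of ubiquitous subunits were almost free of methylation in both genotypes. Their median was 1.62% in WT and 2.69% in TetTKO over 75 genes, with a median difference of 0.55 percentage points and a range from -2.44 to 7.38 points. In 69 of the 75 the level was under 10% in both libraries, against 9827 of 21074 denser ends of all genes. Abundantly expressed genes were alike in this: of those with at least 50 FPKM in both libraries, 1346 of 1504 were under 10% in both, with medians of 1.31 and 2.32%. Atp5b had 1 methylated of 762 read calls in WT (0.131%, bounds 0.003 to 0.729%) and 6 of 948 in TetTKO (0.633%, 0.233 to 1.37%). Ndufa4 had 1.07% (0.462 to 2.09%) and 1.09% (0.439 to 2.23%) of read calls methylated, and the bounds overlap. The other genes of chromosome 6 with lower FPKM in TetTKO were also under 10% at this end: Ndufa5 had 4.37 and 6.77%, Ndufb2 5.36 and 5.39%, and Ndufa9 3.95 and 7.32%. The largest differences among ubiquitous genes were Atp5f1 (0 and 7.38%), Sdhc (3.67 and 9.19%) and Ndufa1 (0 and 5.31%). The highest WT level was that of Cox6c, at 20.1% in WT and 18.1% in TetTKO, with 58 CpGs and 525.5 FPKM.

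Over all 83 subunits, 2 denser ends were at least 10 points higher in TetTKO and 2 at least 10 points lower, against 8.01% and 9.65% of the 21074 denser ends of all genes, and all 4 belong to tissue isoforms. Of the 1504 denser ends of genes of at least 50 FPKM in both libraries, 29 were higher and 11 lower by as much. Ndufa4l2 had 9.64% in WT and 34.5% in TetTKO over 35 CpGs, with pooled bounds of 6.52 to 13.9% and 29.4 to 41.1%. This end reaches into the interval of Shmt2, and the RefSeq promoter set gave no start for Ndufa4l2 by which to place it. Cox4i2 had 24.0 and 34.2% over 37 CpGs, with bounds of 19.7 to 29.0% and 35.8 to 47.0% around pooled shares of 24.1 and 41.3%. Cox8b had 81.7 and 66.2% (bounds 76.6 to 86.9% and 57.7 to 72.4%), and Cox8c had 85.7 and 75.4% (81.9 to 91.1% and 69.8 to 81.8%). In each of these pairs the bounds do not overlap, which makes 2 of 83 higher and 2 lower, against 5.60% and 2.85% of the denser ends of all genes. Of the 7 subunits at 10 to 50% in WT, 1 (Cox4i2) was at least 10 points higher, against 30.4% of 3439 such ends of all genes.

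The tissue isoforms fell into unlike states at this end. Cox6b2 and Cox7a1 were almost unmethylated, with 4.45% in WT and 4.23% in TetTKO for Cox6b2 and 2.82 and 6.60% for Cox7a1. Cox7b2 was methylated, with 88.9 and 84.2%, as were Cox8b, Cox8c and Cox6a2 (73.2 and 77.4%). In the promoter windows printed above, the almost unmethylated Cox6b2 held 8 CpGs and the methylated Cox7b2 held 9. The isoforms under 10% at this end in both libraries were Cox6b2 and Cox7a1. Of these, Cox7a1 had the highest mRNA level of all 8 isoforms and Cox6b2 the next. Ndufa4l2, also under 10% at this end in WT (9.64%), was at 2.13 FPKM there. The 2 isoforms whose denser end was at least 10 points higher, Ndufa4l2 and Cox4i2, had more FPKM in TetTKO than in WT, at levels under 4 FPKM. So did Cox6b2 and Cox7b2, whose denser ends were not higher in TetTKO. In all, 4 of the 5 counted isoforms had more FPKM in TetTKO.

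**Figure D3:**
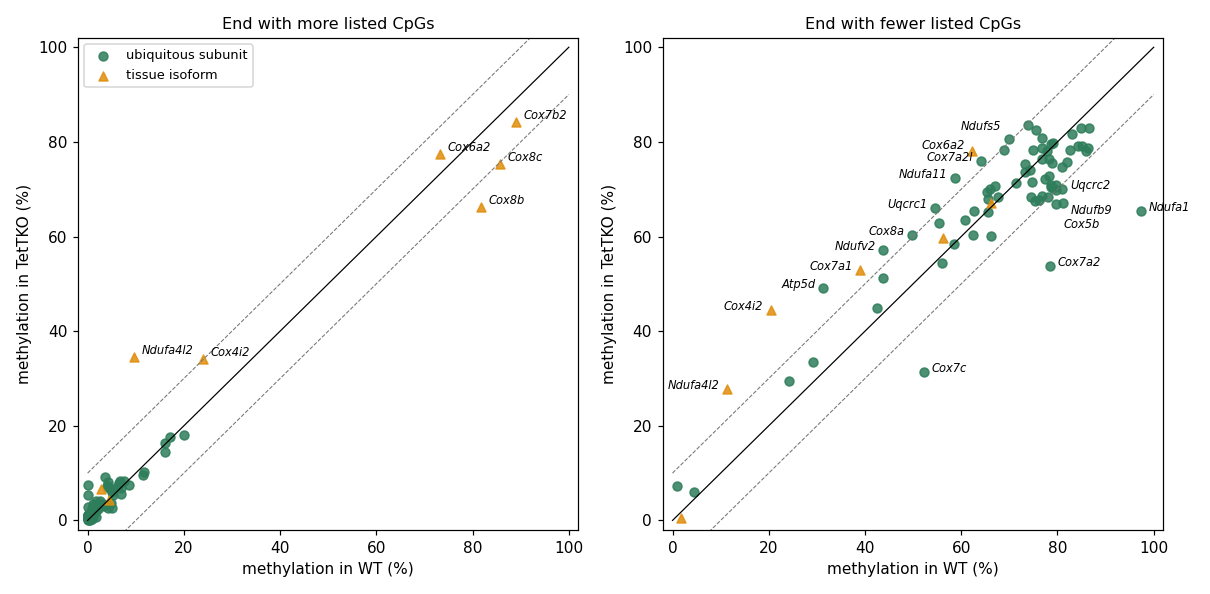
Mean methylation in WT (horizontal axis, %) and TetTKO (vertical axis, %) of the CpG-denser end (left) and the other end (right) of each subunit gene with at least 5 listed CpGs there, with the line of equality and dashed lines 10 points away. Ubiquitous subunits (green) crowd near 0 at the denser end, with Cox6c highest at 20.1% in WT, and spread over both axes at the other end.

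The other end, which is on the side of the gene's 3′ end wherever a strand was known for ubiquitous subunits, was methylated in most genes. Over 78 subunits with at least 5 CpGs there the median was 74.1% in WT and 70.0% in TetTKO, with a median difference of -0.09 points. At least 10 points higher in TetTKO were 11, against 11% of 18154 such ends of all genes, and at least 10 points lower were 6, against 24.4%. Among genes of at least 50 FPKM in both libraries, 17.4% of 1399 such ends were higher and 14.2% lower. The 11 higher ends belong to Cox4i2 (20.5 and 44.4%), Atp5d (31.3 and 49.0%), Ndufa4l2 (11.4 and 27.8%), Cox6a2 (62.3 and 78.1%), Ndufa11 (58.6 and 72.4%), Cox7a1 (39.0 and 52.8%), Ndufv2 (43.8 and 57.1%), Cox7a2l (64.0 and 76.0%), Uqcrc1 (54.5 and 65.9%), Ndufs5 (69.9 and 80.6%) and Cox8a (49.8 and 60.3%). The pooled bounds of WT and TetTKO do not overlap for Cox4i2, Ndufa4l2, Cox6a2, Cox7a1 and Atp5d, 5 of 78 ends, against 5.41% of these ends of all genes. All 10 subunits at 10 to 50% in WT at this end were higher in TetTKO, 6 of them by at least 10 points. Of 2232 such ends of all genes, 1935 were higher, 1149 of them by at least 10 points.

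The 6 lower ends were Ndufa1 (97.4 and 65.4%, 8 CpGs), Cox7a2 (78.5 and 53.7%, 9 CpGs), Cox7c (52.2 and 31.3%, 5 CpGs), Ndufb9 (81.1 and 67.1%), Cox5b (79.7 and 66.9%) and Uqcrc2 (81.0 and 70.0%). Ndufa1, on the X chromosome, had 49 of 51 read calls methylated in WT (bounds 86.5 to 99.5%) and 34 of 53 in TetTKO (49.8 to 76.9%). Cox7c rested on 52 and 60 read calls, with bounds of 39.5 to 67.8% and 21.7 to 46.7% that overlap. The bounds do not overlap for Ndufa1, Cox7a2 and Cox5b, 3 of 78 ends, against 6.42% of all. In 3 members both ends were under 10% in WT and in TetTKO: Ndufb10 had 1.01 and 7.35% at the other end, Ndufb6 4.40 and 6.06%, and Cox6b2 1.67 and 0.463%. For the other end alone, 3 of 78 subunits were under 10% in both libraries, against 467 of 18154 genes. Of 1399 genes of at least 50 FPKM in both libraries, 97 were. Of the ubiquitous genes with an end past 10 points in either direction, none with a counted mRNA was past the threshold in FPKM. Among them were Atp5d (44.0 and 41.0 FPKM) and Ndufa11 (32.2 and 29.2 FPKM). Of all 70 counted ubiquitous subunits off chromosome 6, 5.71% were lower and 1.43% higher past it, so none among so few genes is near that share.

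Across whole intervals the subunits had a median of 37.2% in WT and 37.4% in TetTKO over 83 genes, with a median difference of 0.10 points, whereas 21384 genes had 65.3 and 62.0%, with a median difference of -3.01 points. The sign of the subunits' median is not settled, since it was -0.64 points with CpGs of coverage 10 or more and -0.52 points with pooled reads. Genes of at least 50 FPKM in both libraries resembled the subunits, with 40.9 and 42.4% and a median difference of 0.27 points over 1507 intervals. Subunit intervals at least 10 points higher in TetTKO were 3, against 2.85% of all genes and 3.25% of those of at least 50 FPKM, and 1 was lower, against 7.48% and 0.664%. Cox6a2 had 57.6 and 75.1%, Ndufa4l2 16.2 and 32.1% and Cox7a1 20.6 and 33.1%. The lower one was Ndufa1, with 77.9 and 60.2% over 15 CpGs. The interval of Cox6a2 spans 932 bp, so its ends overlap each other and together cover it. Cox7a1 was 2.82% methylated at its denser end in WT, and the larger difference was at its other end.

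Single CpGs showed how these differences were spread. In Ndufa4l2 and the 1000 bp on each side, 72 of 82 CpGs had a higher share of methylated reads in TetTKO and 6 a lower one, with means of 14.3% in WT and 33.9% in TetTKO. In Cox7a1, 23 of 42 were higher and 7 lower (23.9 and 35.7%). In Cox4i2, 60 of 130 were higher and 58 lower (54.2 and 57.5%). Its CpGs at -65 to 80 bp from the left end were at 0 to 22.2% in WT and all at 0% in TetTKO. The higher mean of that denser end thus came from its other CpGs. In Ndufa4, 22 of 116 were higher and 30 lower (22.8 and 23.3%), with most CpGs near the right end at 0 in both libraries. Neighbouring CpGs share reads, and the median number of reads per CpG was between 7.5 and 12.

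**Figure D4:**
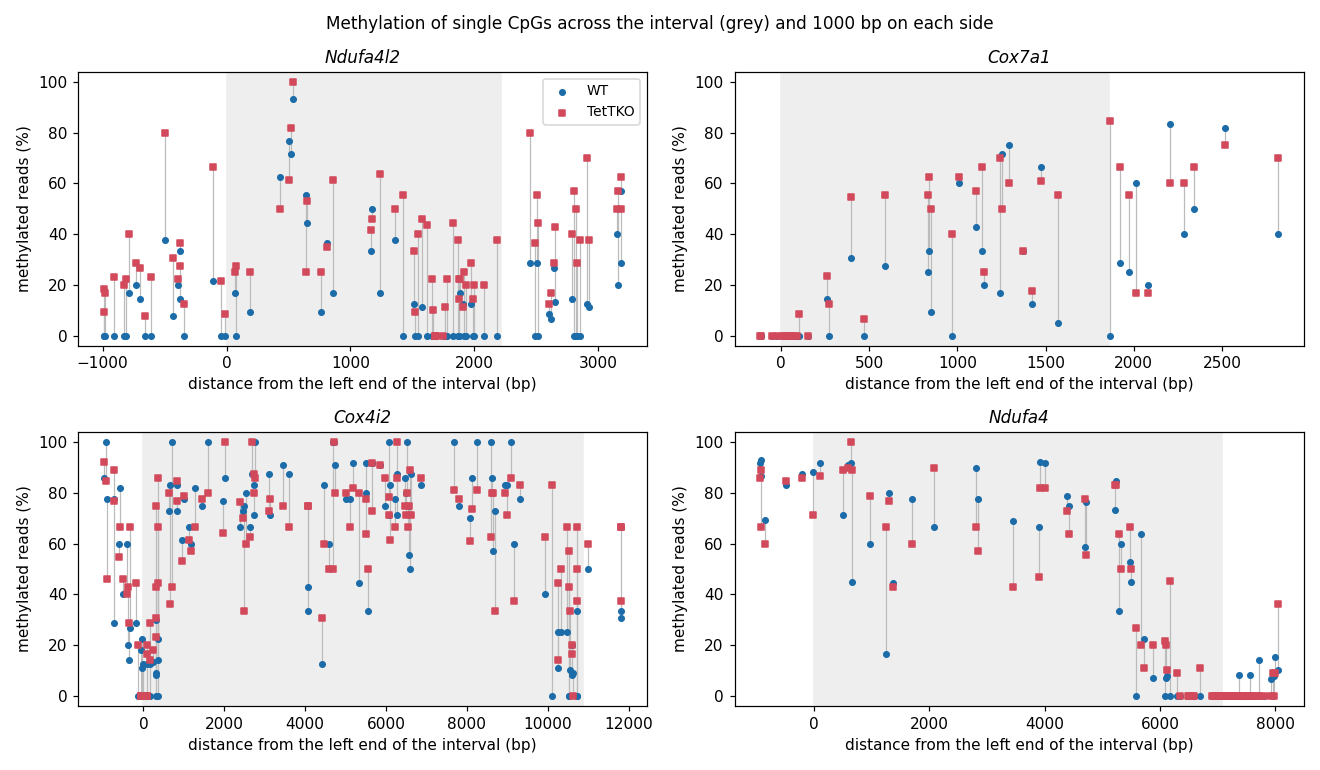
Share of methylated reads (%) at each listed CpG of 4 genes in WT (blue circles) and TetTKO (red squares), by distance in bp from the left end of the interval (grey) and over 1000 bp on each side, with a grey line joining the values of a CpG. In Ndufa4l2 72 of 82 CpGs are higher in TetTKO, and in Ndufa4 the right end is unmethylated in both.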

How the data were processed

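WT and TetTKO cells each had 1 WGBS and 1 RNA-seq library, so groups were compared by size, without p-values. The submitters' processing notes name Trim Galore, Bismark 0.7.9, Bowtie, SAMtools, TopHat2 2.0.2, Cufflinks 2.0.2 and mm9. The sources used here give no name for the gene models. Expression was deposited as FPKM per gene, with an interval and no strand. The deposited methylation files give each CpG's fraction of methylated reads with the counts behind it (methylated reads and total), and each CpG had a coverage of at least 5 in both libraries. Means over CpGs used the fractions, and exact 95% intervals used the summed counts. A read over several CpGs was counted at each, and PCR copies of a molecule are not separate evidence, so these intervals are too narrow.

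Symbols with several rows were summed. The counted genes had at least 1 FPKM in WT or TetTKO, 1 FPKM was added before logs, and ends needed at least 5 CpGs. Thresholds of 0.32 (log2), 2-fold and 10 points describe size. The calculations used Python 3.11.15, numpy 2.4.6, pandas 2.3.3 and scipy 1.17.1 and were tested on simulated data. Promoters came from RefSeq (GRCm38.p6), at the start listed first for a symbol.

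The members, lists and rules were chosen with earlier results of these data known. Named genes were, per complex, the highest and lowest in WT and the 2 with the largest difference in each direction, with all on chromosome 6, all tissue isoforms with their partners, all past 2-fold or 10 points, and the 3 largest differences each way in other lists. The NRF1 motif genes, Uqcrfs1, Ndufb6, Ndufb10 and others beyond this were named after their values were seen. Alternatives were other pseudocounts, expression minimums, centring, coverage minimums, pooled reads, CpG minimums, narrower ends, all symbols of the rule, and omission of chromosome 6. The minimum of 50 FPKM and the longer motif window were added after seeing the data.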

Additional observations from a re-analysis of the deposited data

How the results depend on the processing

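The median log2 difference of subunits off chromosome 6 (-0.07) and on it (-0.63) kept its direction, and stayed within 0.1, under all 7 other settings tried for FPKM, and the count lower by at least 0.32 on the log2 scale off chromosome 6 was 4 under each. The count higher by as much was 3. It became 4 with a pseudocount of 0.1 FPKM and 4 with every symbol of the rule. With a pseudocount of 5 FPKM, at least 5 FPKM in both libraries or at least 50 FPKM in both libraries it became 1. The last of these settings was added after seeing the data. The 2 genes lost where it became 1 are Ndufa4l2 and Cox4i2, which are under 5 FPKM. The count of denser ends at least 10 points higher was 2. It became 3 with CpGs of coverage 10 or more in both libraries and 3 with ends from 500 bp outside. The median difference of denser ends was between 0.30 and 0.56 points under all 6 settings tried for methylation. That of the other ends was -0.09 points and ranged from -0.81 to 0.58 points, so its sign is not settled. The median over intervals was 0.10 points, and became -0.64 points with CpGs of coverage 10 or more in both libraries, -0.52 points with methylated reads over all reads and -0.03 points with every symbol of the rule, so its sign is not settled either.

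No paired analysis was possible because each genotype had 1 library of a kind. The depth of the RNA libraries is unknown, so no counting error can be put on FPKM. Differences between cultures, clones and library preparations cannot be told apart from genotype. At median coverages of 8 and 10, an end of few CpGs rests on few read calls, as the 52 and 60 of Cox7c with bounds of 39.5 to 67.8% and 21.7 to 46.7%.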

Other observations

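Other genes whose intervals overlap a member had these levels in WT and TetTKO: Wdr77, beside Atp5f1, 60.7 and 55.4 FPKM; Gabpa, a subunit of an ETS factor known as a regulator of respiratory genes, beside Atp5j, 33.5 and 35.2 FPKM; and Rbm10, beside Ndufb11, 31.9 and 33.8 FPKM. A second row of the symbol BC002163, on mm9 chromosome 16 (42955692 to 42956192), was at 26.2 and 23.4 FPKM, close to the row that covers Ndufs5. In all, 3999 symbols were listed at 0 in both libraries, none of them a cytosolic ribosomal protein gene (Rpl or Rps with a digit).

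The listed interval of Ndufa4l2 spans 2216 bp, and the RefSeq gene spans 7881 bp. The end called denser in that gene lies where its interval meets that of Shmt2. Of the 7 members that are no subunits, Ndufaf2 was at 41.7 and 33.3 FPKM and Ndufaf3 at 13.7 and 11.5 FPKM, and the denser ends of all 7 were under 5% methylated in both libraries.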
